A study of Mus musculus with 6 samples.

Results

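The genes described here encode splicing factors and core spliceosome proteins. They were chosen by symbol alone, as all genes of the count table named Srsf, Hnrnp, Sf3a or Sf3b, Snrp, U2af or Prpf, with Snrpn left out. The rule gave 72 genes of 52997 in the table: 11 Srsf, 22 Hnrnp, 9 Sf3a and Sf3b, 14 Snrp, 3 U2af and 13 Prpf genes. The study set infant mice of 10 days against adult mice of 7 weeks, with 3 mice and 3 RNA libraries in each group. All 6 mice were of a Foxp3-GFP strain on the C57BL/6 background, which both groups carry. The cells were CD4+ T cells that the series describes as naive, taken from pooled lymph nodes, and each library came from 1000 sorted cells.

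The spliceosome removes introns from new transcripts. U1 binds the 5′ splice site, U2af and the Sf3a and Sf3b complexes place the U2 particle at the 3′ end of the intron, and the tri-snRNP brings in the catalytic core. SR proteins of the Srsf family mostly promote the use of exons to which they bind, while many hnRNP proteins repress or redirect splicing, so that the balance between them sets alternative exons. In T cells the best known example is Ptprc, the gene of CD45, whose variable exons are skipped when naive cells become activated or memory cells.

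Srsf6 and Hnrnpa2b1 were the members that passed the test between ages, and their promoters are shown because the calls between ages fell on these 2 genes. Both windows are the 250 bases before the gene's start in RefSeq (build GRCm38.p6), written 5′ to 3′ on the gene's strand. Capitals mark the searched motifs that were found, on either strand. The Srsf6 window lies at chr2:162931258-162931507 on the plus strand and the Hnrnpa2b1 window at chr6:51469895-51470144 on the minus strand.

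Srsf6: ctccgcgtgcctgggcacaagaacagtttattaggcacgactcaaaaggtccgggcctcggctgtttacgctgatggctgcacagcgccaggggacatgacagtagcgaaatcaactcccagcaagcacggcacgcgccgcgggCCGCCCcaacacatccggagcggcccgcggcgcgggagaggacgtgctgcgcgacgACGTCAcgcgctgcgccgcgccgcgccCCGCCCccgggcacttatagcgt

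Hnrnpa2b1: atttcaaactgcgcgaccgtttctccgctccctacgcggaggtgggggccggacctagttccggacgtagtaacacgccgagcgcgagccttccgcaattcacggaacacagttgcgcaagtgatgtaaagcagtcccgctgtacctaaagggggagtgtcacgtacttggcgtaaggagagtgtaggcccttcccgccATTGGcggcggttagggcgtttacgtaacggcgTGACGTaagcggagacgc

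Motifs were searched on both strands. The Srsf6 window held 2 matches to the GC box and 1 to the core of a cAMP response element, all on the opposite strand, with 35 CpG and 68.4% GC. The Hnrnpa2b1 window held 1 match to the NF-Y box on the opposite strand and 1 to the cAMP response core on its own strand, with 29 CpG and 59.6% GC, and no matches overlapped. The cAMP response core, searched as TGACGT, was in 11 of the 58 members with a promoter in the table (19.0%), in 11.1% of 8308 promoters of tested genes and in 7.30% of 20009 promoters in all. The GC box, searched as GGGCGG, was in 67.2% of the 58 members, 60.1% of promoters of tested genes and 39.9% of all promoters. The NF-Y box, searched as CCAAT, was in 46.6% of these members, 36.9% of promoters of tested genes and 35.3% of all. Neither window held the ETS motif, searched as CCGGAAG, though it was in 29.3% of the 58 members and 16.0% of promoters of tested genes. Also absent from both was the E-box, searched as CACGTG (8.62% of these members, 8.90% of promoters of tested genes). The same held for the TATA box, searched as TATAAA (8.62% and 5.80%). Neither held the YY1 motif, searched as AAGATGGC (1.72% and 2.27%), or the NRF1 motif (0% and 1.83%). A match describes the letters and does not show that a factor binds there.

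Library totals were 4115742 to 4739304 counts in infant mice and 3421253 to 4887371 in adult mice, and adult mouse 2 stood apart, with the fewest counts but 36373 genes with a count, against 17992 to 21840 in the other 5. Levels are given in CPM, counts scaled by library size with TMM factors. Cd3e, a subunit of the T cell receptor complex, had 594, 636 and 568 CPM in infant mice, against 594, 616 and 635 CPM in adult mice, and Cd4, the defining coreceptor, had 876, 868 and 856 CPM in infant mice, against 957, 857 and 1126 CPM in adult mice. Over 10 T cell identity markers the summed CPM ran from 9550 to 9664 in infant and from 9335 to 10828 in adult mice. Of these 10, 3 had positive and 7 negative log2 fold changes, infant over adult. By edgeR, 1 was called lower in infant mice (10.0%, beside 3.64% of all genes). Among markers of other cells, Ncr1 and Hba-a1 were 0 in all libraries, yet Ighm was at 665 to 793 CPM in infant and 692 to 822 CPM in adult mice. In infant libraries the summed CPM ran from 670 to 801 for 6 B cell markers (mostly Ighm), 49.2 to 65.8 for 6 myeloid, 0.42 to 1.21 for 4 natural killer, 32.0 to 41.8 for 2 CD8, 21.5 to 26.8 for 4 regulatory T cell, 3.38 to 8.71 for 3 erythroid and 375 to 391 for 4 stromal and endothelial markers. In adult libraries these sums ran from 707 to 830 for B cell, 47.5 to 90.6 for myeloid, 0 to 9.09 for natural killer, 31.3 to 36.5 for CD8, 12.6 to 32.7 for regulatory T cell, 3.64 to 4.27 for erythroid and 314 to 395 for stromal and endothelial markers. Of the 4 stromal and endothelial markers, only 1 passed the filter on low counts.

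Markers of cycling cells differed between ages. Their sum was 64.3 to 129 CPM in infant mice, against 9.45 to 24.7 CPM in adult mice. Of the 4, 3 were called higher (75.0%, beside 1.52% of all genes). Mki67 had 10.3, 14.8 and 27.5 CPM in infant mice, against 0.485, 3.41 and 0.855 CPM in adult mice (log2 fold change 3.52 ± 0.58 (SE), adjusted p = 0.00352).

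Of the 72 members, 67 passed the filter on low counts and were tested. Together the 72 genes took 1.06% to 1.09% of counts in infant mice and 0.964% to 1.00% in adult mice, without overlap. The 0.964% is adult mouse 2, where 96.1% of all counts fell in tested genes, against 99.2% to 99.5% in the other libraries. By the quasi-likelihood test of edgeR at an adjusted p of 0.05, 2 members were higher in infant mice, none was lower and 65 were not called. That is 2.99% of the tested members, beside 3.64% of all 11681 genes tested (1.52% higher and 2.11% lower), so the members were called at about the share of genes in general. At an unadjusted p under 0.05 there were 11 members (9 higher and 2 lower), or 16.4%, beside 17.3% of all genes. The DESeq2 test called 3 members higher and 1 (Hnrnph3) lower, with 622 of all 11681 genes called. The median log2 fold change, infant over adult, was 0.032 over the members and −0.0017 over all genes, and members ran from −0.56 to 0.77. In these bulk samples, fewer cells of a type and less RNA per cell cannot be told apart, and levels are shares of each library's RNA.

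The data also bound how far most members could have moved. For 62 of the 67 tested members (92.5%) the 95% interval of the fold change lay within 2-fold either way, beside 65.6% of all genes, and for 46 (68.7%) within 1.5-fold, beside 36.1%. The intervals do not cover reads counted for the wrong gene where genes share sequence. The 5 members whose interval reached past 2-fold were Srsf6, Srsf9, Srsf12, Hnrnpll and Hnrnpa0, of which all but Srsf6 were lowly expressed. Members were more highly expressed than most genes, with 74.6% above the median gene, and their median coefficient of variation between mice was 8.01% in infant and 11.8% in adult libraries, against 15.1% and 16.9% over all tested genes.

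**Figure D1:**
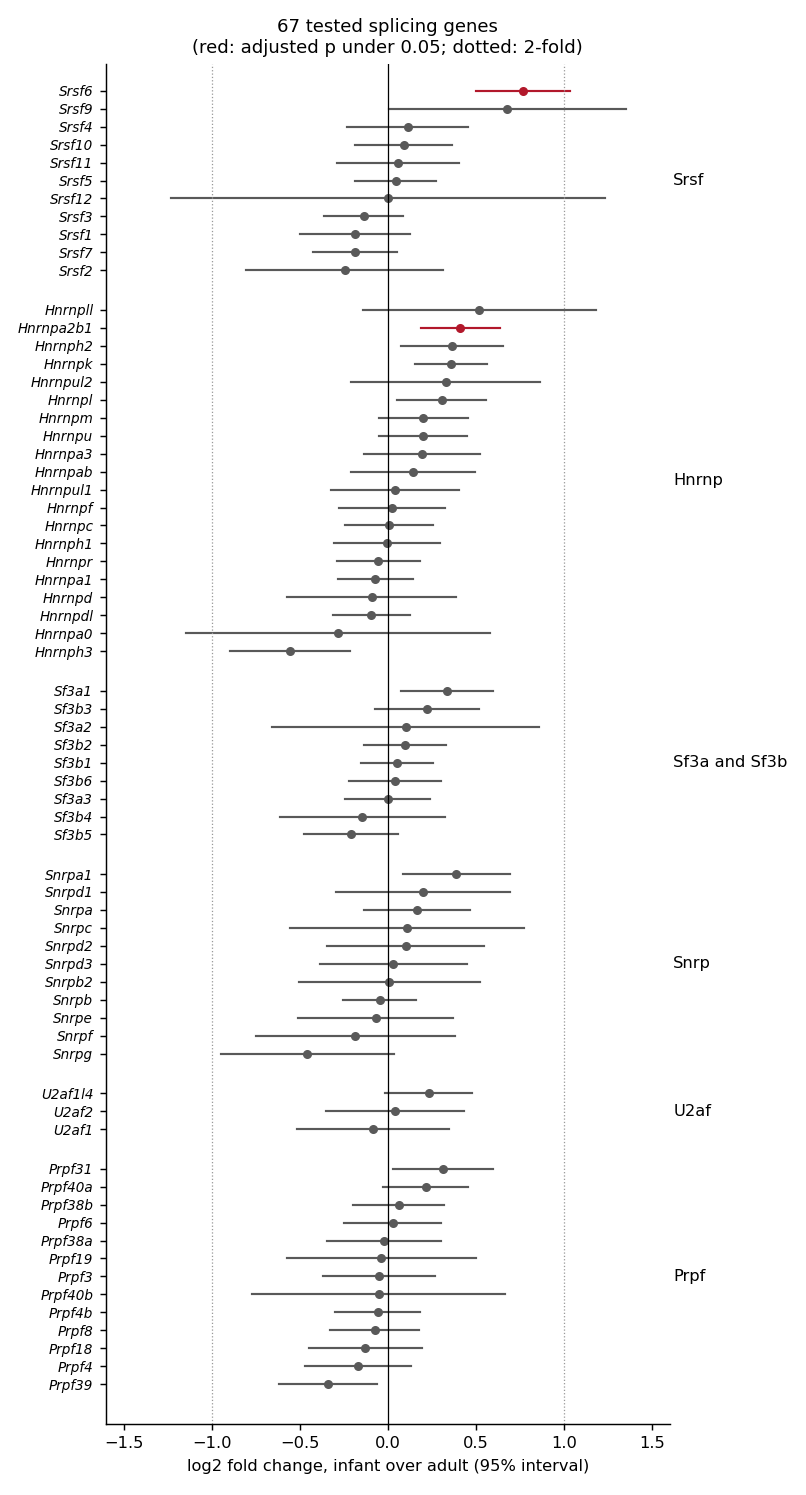
Log2 fold change, infant over adult, of each of the 67 tested members by family, with its 95% interval from edgeR; dotted lines mark 2-fold and red marks an adjusted p under 0.05. Only Srsf6 and Hnrnpa2b1 are red, and 62 of the 67 intervals stay within the dotted lines.

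**Figure D2:**
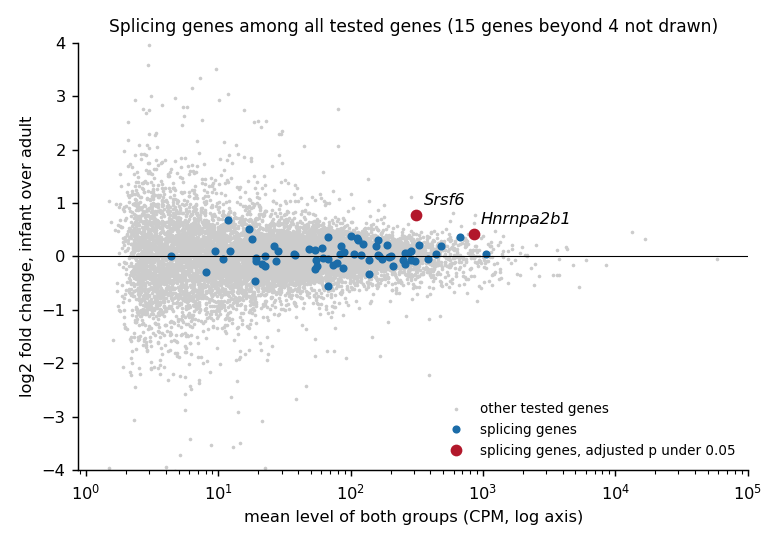
Log2 fold change, infant over adult, against mean level in CPM on a log axis for all 11681 tested genes, with members in blue and red; 15 genes beyond 4 either way are not drawn. The members lie within −0.56 to 0.77 while other genes of similar level reach further from 0 in both directions.

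Among the SR proteins, Srsf6 (SRp55), which binds exonic enhancers and promotes the use of exons, stood out. Srsf6, at chr2:162931528-162937121 on the plus strand, had 376, 408 and 403 CPM in infant mice, against 270.3, 190.4 and 235 CPM in adult mice. The lowest infant library lay above the highest adult one, and adult mouse 2 was the lowest of all. The means were 395 ± 16.9 CPM in infant and 232 ± 40.1 CPM in adult mice (SD, n = 3 each), a 1.70-fold difference with a log2 fold change of 0.77 ± 0.13 (SE; 95% interval 0.50 to 1.04) and an adjusted p of 0.00311 by edgeR. No 25-base stretch of its transcripts occurs in transcripts of another gene, and its exons overlap no other gene. It was called under all 15 other settings of the analysis, with log2 fold changes of 0.65 without adult mouse 2 to 0.89 without adult mouse 1 and adjusted p up to 0.0485 without infant mouse 2. The summed cycling-cell markers and Mki67 were higher in the same infant libraries, and their part in the Srsf6 and Hnrnpa2b1 levels was not tested.

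The other 10 SR proteins were not called, with 6 of them at positive and 4 at negative log2 fold changes. In this family 1 of 11 was thus called higher (9.09%, beside 1.52% of all genes). The most abundant of the family per kb of exon, Srsf5 (SRp40), had 480.3, 459.5 and 413 CPM in infant mice, against 461, 389.8 and 461 CPM in adult mice. Its groups overlapped (log2 fold change 0.044 ± 0.11 (SE), adjusted p = 0.887), and its 95% interval of −0.19 to 0.28 lay below that of Srsf6. Srsf5 shares 16.7% of its 25-base stretches with other genes. Within each library, Srsf6 had 0.783, 0.887 and 0.974 times the CPM of Srsf5 in infant mice and 0.586, 0.488 and 0.510 times in adult mice. Srsf7, an SR protein that also takes part in mRNA export, had 181, 199 and 211 CPM in infant mice, against 222, 207 and 242 CPM in adult mice, with overlapping groups and a log2 fold change of −0.19 ± 0.11 (SE, adjusted p = 0.439).

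Srsf9 was low but had the second largest fold change among the members, with 10.1, 14.99 and 18.8 CPM in infant mice, against 9.70, 9.09 and 8.55 CPM in adult mice. The groups did not overlap, infant mouse 1 lay just above the adult libraries, and the call was not made (log2 fold change 0.68 ± 0.31 (SE), adjusted p = 0.287). Srsf1 (ASF/SF2), the founding SR protein, had 52.3, 53.2 and 50.7 CPM in infant mice, against 54.8, 61.7 and 61.3 CPM in adult mice. Its infant values all lay below the adult ones, by less than the test could tell from replicate spread (log2 fold change −0.19 ± 0.15, SE). Srsf4 (SRp75), a close relative of Srsf6, had 63.0, 55.4 and 47.8 CPM in infant mice, against 48.5, 50.3 and 54.9 CPM in adult mice, with overlapping groups (log2 fold change 0.11 ± 0.16 (SE), adjusted p = 0.787). Srsf4 shares 41.4% of its 25-base stretches with other genes. As 1532 of its exon bases overlap Gm12992 on the other strand, its counts are uncertain.

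**Figure D3:**
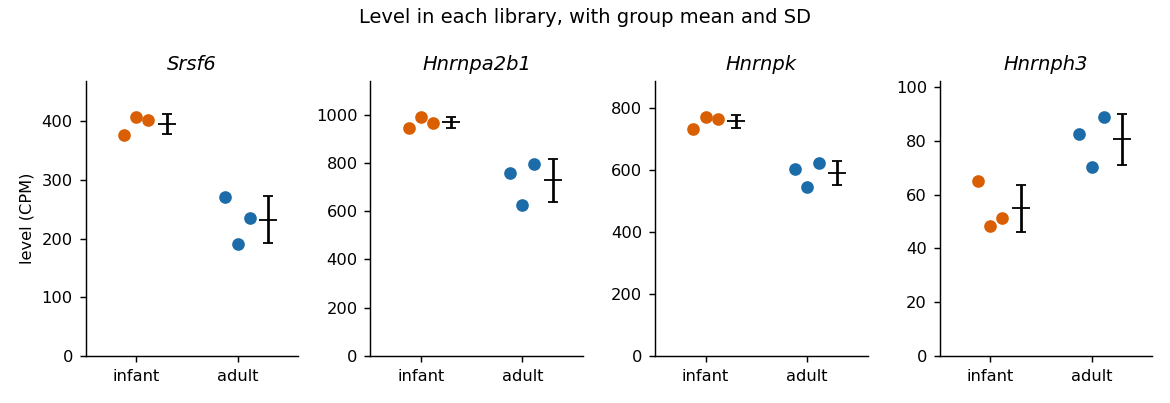
Level in CPM of Srsf6, Hnrnpa2b1, Hnrnpk and Hnrnph3 in each library (points), with mean and SD of 3 mice at the right of each group; axes start at 0. In the first 3 genes every infant point lies above every adult point, and in Hnrnph3 every infant point lies below.

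Of 20 tested members among the hnRNP proteins, which coat nascent RNA, 13 had positive and 7 negative log2 fold changes (median 0.091). Hnrnpa2b1 was the 1 of these 20 called higher (5.0%, beside 1.52% of all genes). This A/B-type protein binds RNA in splicing, transport and the sorting of small RNAs. Hnrnpa2b1, at chr6:51460932-51469894 on the minus strand, had 947, 991 and 968 CPM in infant mice, against 760.02, 628 and 798 CPM in adult mice. The groups did not overlap, and adult mouse 2 was again the lowest. The means were 969 ± 22.4 CPM in infant and 728 ± 89.4 CPM in adult mice (SD, n = 3 each), 1.33-fold apart, with a log2 fold change of 0.41 ± 0.10 (SE; 95% interval 0.19 to 0.64) and an adjusted p of 0.0455 by edgeR. This call is close to the threshold: it was lost under 8 of 15 other settings, including removal of any infant mouse (adjusted p = 0.123, 0.226 and 0.165), of adult mouse 1 (0.134) and of adult mouse 3 (0.0683), while its direction stayed. Without adult mouse 2 the log2 fold change was 0.32, with an adjusted p of 0.0396.

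Cbx3, a heterochromatin protein gene that starts 466 bases from Hnrnpa2b1 on the other strand, had 30.8, 30.7 and 32.4 CPM in infant mice, against 33.2, 32.1 and 33.1 CPM in adult mice. It was not called (log2 fold change −0.069 ± 0.18, SE, adjusted p = 0.893), and the difference between both genes was not tested. Hnrnpa1, an A/B relative and common exon repressor, had 247.9, 236 and 243 CPM in infant mice, against 248.5, 257 and 258 CPM in adult mice. All infant values lay just below the adult ones, with a log2 fold change of −0.071 ± 0.10 (SE, adjusted p = 0.787), and 31.1% of its 25-base stretches occur in transcripts of other genes. Hnrnpa2b1 had 3.82, 4.21 and 3.98 times the CPM of Hnrnpa1 in infant libraries and 3.06, 2.44 and 3.09 times in adult libraries.

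Hnrnpk, a KH-domain protein that binds C-rich RNA, came closest to the threshold without passing. It had 731, 769.8 and 765 CPM in infant mice, against 603, 544 and 620.01 CPM in adult mice, with no overlap between groups (log2 fold change 0.36 ± 0.0960 (SE), adjusted p = 0.0541). It was called under 5 other settings, with adjusted p between 0.00580 by DESeq2 and 0.0383 under a stricter filter. Hnrnpk shares 22.4% of its 25-base stretches with other genes, and 330 of its exon bases overlap Rmi1 on the other strand, so that its counts are uncertain.

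Hnrnph3, a relative of the G-run-binding protein Hnrnph1, had the largest negative fold change of all members, with 64.9, 48.1 and 51.4 CPM in infant mice, against 82.7, 70.2 and 88.9 CPM in adult mice. Its infant libraries all lay below the adult ones (log2 fold change −0.56 ± 0.16 (SE), adjusted p = 0.0711), and it was called lower without adult mouse 2 (adjusted p = 0.0473) and by DESeq2 (0.0441). Its close relative Hnrnph2 had 79.4, 73.8 and 73.7 CPM in infant mice, against 60.6, 54.8 and 60.5 CPM in adult mice, on the opposite side and also short of the call (log2 fold change 0.37 ± 0.14 (SE), adjusted p = 0.172). Hnrnph2 shares 24.3% of its 25-base stretches with other genes, so that its counts are uncertain. Hnrnph1, the most abundant of these 3 relatives per kb of exon, had 199, 197 and 188 CPM in infant mice, against 207, 149 and 229 CPM in adult mice, and its groups overlapped (log2 fold change −0.006 ± 0.14 (SE), adjusted p = 0.991).

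The regulators best known for CD45 exons in T cells, Hnrnpll and Hnrnpl, were not called. Hnrnpll had 15.9, 19.8 and 24.6 CPM in infant mice, against 17.5, 16.8 and 8.12 CPM in adult mice, with overlapping groups and an interval of −0.14 to 1.18 that leaves a difference of up to more than 2-fold (log2 fold change 0.52 ± 0.31 (SE), adjusted p = 0.436). Hnrnpl had 187, 189.9 and 159 CPM in infant mice, against 155, 132 and 146 CPM in adult mice, with every infant library above every adult one (log2 fold change 0.30 ± 0.12 (SE), adjusted p = 0.193). Apart from Hnrnpa2b1, Hnrnpk and Hnrnpa1, the Hnrnp genes named here were chosen after their values were seen, as were Srsf1 and Srsf4.

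Of the Sf3a and Sf3b subunits, which recognise the branch site within U2, none of 9 was called, beside 3.64% of all genes. Of these 9, 6 had positive and 3 negative log2 fold changes (median 0.052). Sf3b1, the large subunit that clamps the branch site, was the most abundant member in CPM, with 1095, 1018 and 1113 CPM in infant mice, against 1038, 957 and 1116 CPM in adult mice. Its groups overlapped and its 95% interval was narrow, at −0.15 to 0.26 (log2 fold change 0.052 ± 0.0956 (SE), adjusted p = 0.846). Sf3a3 had 158, 167 and 168 CPM in infant mice, against 182, 159 and 153 CPM in adult mice, a log2 fold change of −0.0012 ± 0.11 (SE). Sf3b2 had 290.4, 298 and 295 CPM in infant mice, against 272, 247 and 306 CPM in adult mice, also with overlapping groups. Sf3a1, which contacts the U1 and U2 particles, had 132, 123 and 119 CPM in infant mice, against 91.9, 97.2 and 108 CPM in adult mice. The infant libraries all lay above the adult ones, short of the call (log2 fold change 0.34 ± 0.12 (SE), adjusted p = 0.165). Sf3b5, the smallest subunit, had 81.2, 76.4 and 86.2 CPM in infant mice, against 90.9, 96.3 and 94.9 CPM in adult mice, with the infant libraries below (log2 fold change −0.21 ± 0.13 (SE), adjusted p = 0.439).

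The U2af proteins bind the end of the intron, U2af2 at the pyrimidine tract and U2af1 at the AG. U2af2 had 40.0, 32.9 and 40.8 CPM in infant mice, against 35.9, 33.0 and 41.7 CPM in adult mice, and U2af1 had 27.8, 24.4 and 26.8 CPM in infant mice, against 25.2, 32.7 and 26.3 CPM in adult mice. Neither group pair separated, with log2 fold changes of 0.039 ± 0.18 and −0.086 ± 0.20 (SE). U2af1l4 (U2AF26), a paralogue of U2af1, had 135, 132 and 132 CPM in infant mice, against 110.1, 111 and 119 CPM in adult mice. Its infant libraries lay above the adult ones (log2 fold change 0.23 ± 0.11 (SE), adjusted p = 0.329), but 52.5% of its 25-base stretches also occur in other genes, above all in the readthrough gene Gm49396, so that its counts are uncertain.

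The Snrp genes encode the Sm ring and the specific proteins of U1 and U2. None of 11 tested members was called, beside 3.64% of all genes, with 7 positive and 4 negative log2 fold changes (median 0.032). Snrpb, whose protein SmB is part of the ring on every spliceosomal snRNP but U6, had 367, 370.3 and 399.7 CPM in infant mice, against 401, 383 and 390.3 CPM in adult mice. The groups overlapped (log2 fold change −0.046 ± 0.0973 (SE), adjusted p = 0.869). Snrpe, another ring protein, had 44.2, 66.5 and 49.8 CPM in infant mice, against 47.8, 73.6 and 47.4 CPM in adult mice, where mouse 2 was highest in both groups. The ring protein gene Snrpg had 15.7, 15.7 and 16.2 CPM in infant mice, against 19.4, 25.002 and 21.2 CPM in adult mice, with all infant libraries below (log2 fold change −0.46 ± 0.23 (SE), adjusted p = 0.335). Of the U2-specific proteins, Snrpa1 had 119, 93.1 and 127 CPM in infant mice, against 86.3, 92.1 and 81.0 CPM in adult mice, with the infant libraries above but infant mouse 2 at nearly the level of adult mouse 2 (log2 fold change 0.39 ± 0.14 (SE), adjusted p = 0.162). The U1 protein gene Snrpa had 61.8, 67.5 and 61.8 CPM in infant mice, against 58.2, 56.3 and 56.0 CPM in adult mice, again with no overlap and no call (log2 fold change 0.16 ± 0.14, SE, adjusted p = 0.607); it was singled out for its separation after its values were seen.

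Among the 13 Prpf genes none was called, beside 3.64% of all genes. Of these 13, 9 had negative and 4 positive log2 fold changes, with a median of −0.051. Prpf8, the scaffold of the catalytic core, had 315, 274 and 252 CPM in infant mice, against 303, 264 and 319 CPM in adult mice. Prpf6, which bridges U5 to U4/U6, had 173, 139 and 177 CPM in infant mice, against 161, 143 and 175 CPM in adult mice. Both overlapped between ages, with log2 fold changes of −0.076 ± 0.12 and 0.026 ± 0.13 (SE), as did Prpf38b at 0.061 ± 0.12. Prpf31, a U4 protein needed to form the tri-snRNP, had 136, 114 and 124 CPM in infant mice, against 112, 87.2 and 102 CPM in adult mice. The infant libraries lay above, short of the call (log2 fold change 0.31 ± 0.13 (SE), adjusted p = 0.240). Prpf39, a U1-associated protein, had 109.9, 140.03 and 116 CPM in infant mice, against 147, 144 and 172 CPM in adult mice. Here the infant libraries lay below (log2 fold change −0.34 ± 0.13 (SE), adjusted p = 0.190).

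Counted over all tested members, the libraries of both ages did not overlap for 17 (25.4%), beside 22.8% of all genes. All infant libraries lay above for 11 members (16.4%, beside 11.2%) and below for 6 (8.96%, beside 11.6%). Summed over the 72 members, levels were 10807, 10840.4 and 10927 CPM in infant mice, against 10366, 9374 and 10440.3 CPM in adult mice. Srsf6, Hnrnpa2b1 and Hnrnpk, picked after their values were seen, held 570 CPM of the 798 CPM between the group means (71.4%). The other 69 members together had 8753, 8672 and 8792 CPM in infant mice, against 8733, 8012 and 8787 CPM in adult mice. Adult mouse 2 was the lowest here, but this was not particular to the members. Its CPM summed over all tested genes was also the lowest, at 934099, against 985969 to 1038873 in the other libraries.

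Between members, levels are compared per kb of exon, as CPM per kb. In the mean of all 6 libraries Snrpb was highest, with a mean of 192 in infant and 198 in adult mice. Hnrnpa2b1 followed with 147 in infant and 111 in adult mice, then Srsf5 with 113 in infant and 109.6 in adult mice, and Hnrnpk with 117 in infant and 91.1 in adult mice. Srsf6 had 82.2 ± 3.52 in infant and 48.2 ± 8.33 in adult mice (SD, n = 3 each). In the SR family it was thus between Srsf5 and Srsf7 in infant mice, while in adult mice its mean per kb lay below that of Srsf7. The adult order rests on dividing by the length of all annotated exons merged (4810 bases for Srsf6 and 3550 for Srsf7), and does not hold in CPM.

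**Figure D4:**
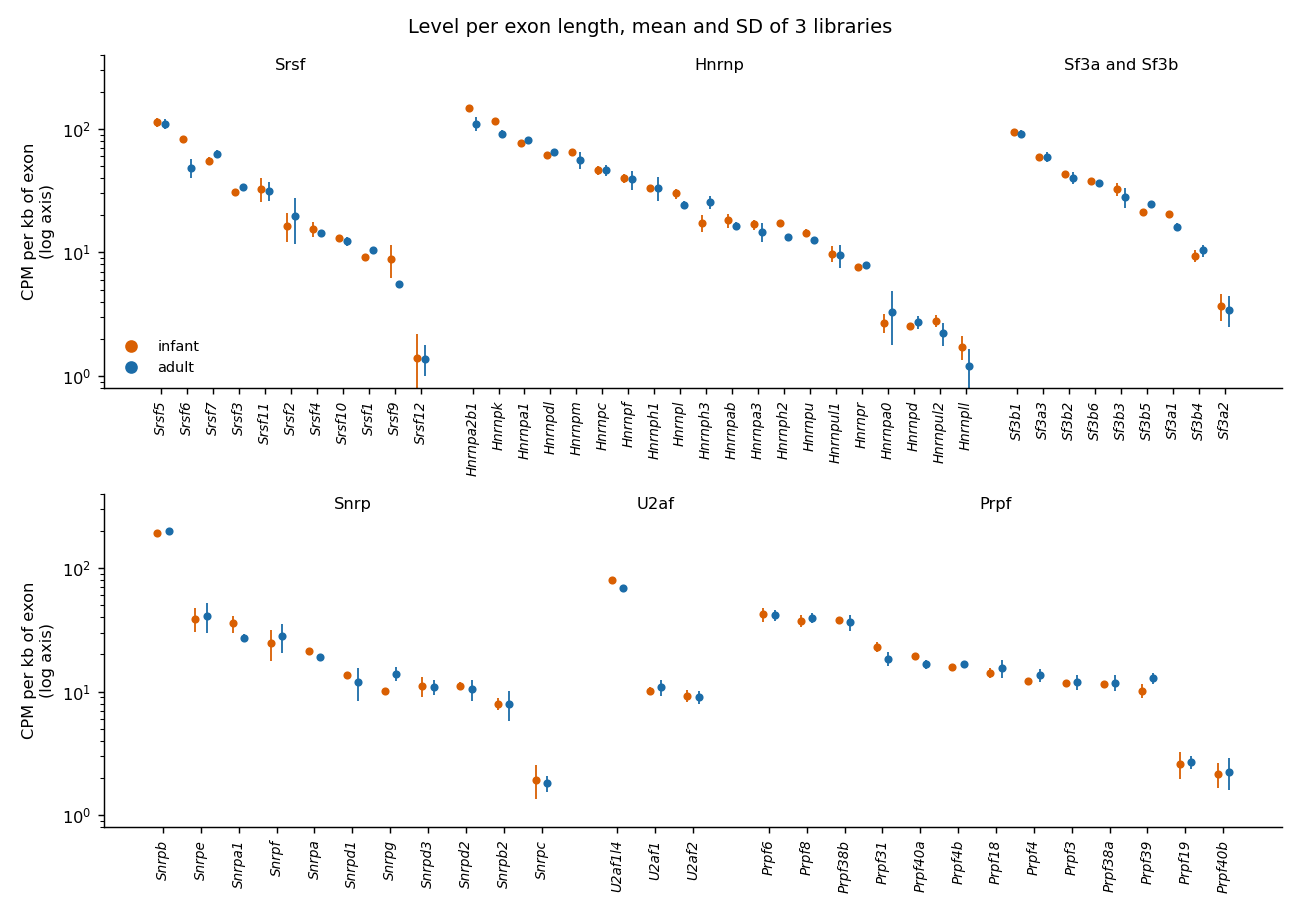
Mean level per kb of exon (CPM per kb, log axis) with SD of 3 mice for the 67 tested members by family, infant in orange at the left of each pair and adult in blue. Snrpb is highest in both groups, and Srsf6 shows 82.2 in infant against 48.2 in adult mice.

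The 5 members below the filter, Snrpert among them, are all annotated as processed pseudogenes. Hnrnpa1l2-ps had counts of 0, 0 and 0 in infant and 1, 1 and 5 in adult libraries, Hnrnpa1l2-ps2 had 1, 0 and 2 in infant and 0, 3 and 3 in adult libraries, and Snrp1c-ps1 had 1 count, in an adult library. Snrp1c-ps2 had no count in any library, and Snrpert had 1, 1 and 2 in infant and 2, 3 and 1 in adult libraries. No fold is given for them, since 3 counts were the floor for a library, at 0.628 to 0.852 CPM.

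Other splicing genes outside the rule were taken from 9 lists of 110 genes, of which 108 were tested. Of these, 2 were higher in infant mice, none was lower and 106 were not called (1.85% called, beside 3.64% of all genes). At an unadjusted p under 0.05 there were 14 of the 108, beside 17.3% of all genes, and the median log2 fold change was 0.032. Libraries did not overlap for 19 of them (17.6%, beside 22.8%). All infant libraries lay above for 17 of the 108, beside 11.2% of all genes, and below for 2, beside 11.6%. Among the 11 tested genes of snRNP assembly, Wdr77, the partner of the methyltransferase Prmt5 that modifies Sm proteins, had 73.1, 68.2 and 72.7 CPM in infant mice, against 41.0, 46.6 and 54.3 CPM in adult mice (log2 fold change 0.59 ± 0.15 (SE), adjusted p = 0.0483). Its call was lost under 9 of 15 other settings, among them without any 1 mouse, with adjusted p up to 0.187. Among 29 other splicing regulators, 20 had positive log2 fold changes (median 0.14), and Syncrip (hnRNP Q), an RNA-binding relative of Hnrnpr, had 124, 132 and 131 CPM in infant mice, against 96.0, 81.3 and 91.7 CPM in adult mice (log2 fold change 0.52 ± 0.12 (SE), adjusted p = 0.0287). Its call was lost under 7 settings, among them without any 1 mouse (adjusted p 0.0594 to 0.159).

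The remaining lists held no call. Of 14 genes of the Prpf19 complex and related proteins, 11 had negative log2 fold changes, and Aqr, an intron-binding helicase, had 171, 156 and 171 CPM in infant mice, against 221, 199 and 228 CPM in adult mice (log2 fold change −0.38 ± 0.11 (SE), adjusted p = 0.0734). It was called lower without adult mouse 2 (adjusted p = 0.0378) and by DESeq2 (0.0346). Eftud2, the GTPase of U5, was the member of smallest p among 9 helicases and Eftud2, with 211, 171 and 199 CPM in infant mice, against 145, 157 and 151 CPM in adult mice (log2 fold change 0.36 ± 0.11 (SE), adjusted p = 0.107). Of the SR protein kinases and SR-related proteins, which act on or with the Srsf family, Srpk2 had 154, 144 and 154 CPM in infant mice, against 125, 131 and 111 CPM in adult mice (log2 fold change 0.30 ± 0.12 (SE), adjusted p = 0.190). The coactivator Srrm1 had 264, 268 and 252 CPM in infant mice, against 218, 216 and 216 CPM in adult mice (log2 fold change 0.27 ± 0.10 (SE), adjusted p = 0.171). Both separated without a call. The members of smallest p among the Snrnp genes (Snrnp200), the LSm ring (Lsm8) and the exon junction complex (Rnps1) had log2 fold changes of −0.14 ± 0.12, −0.31 ± 0.19 and 0.23 ± 0.16 (SE).

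**Figure D5:**
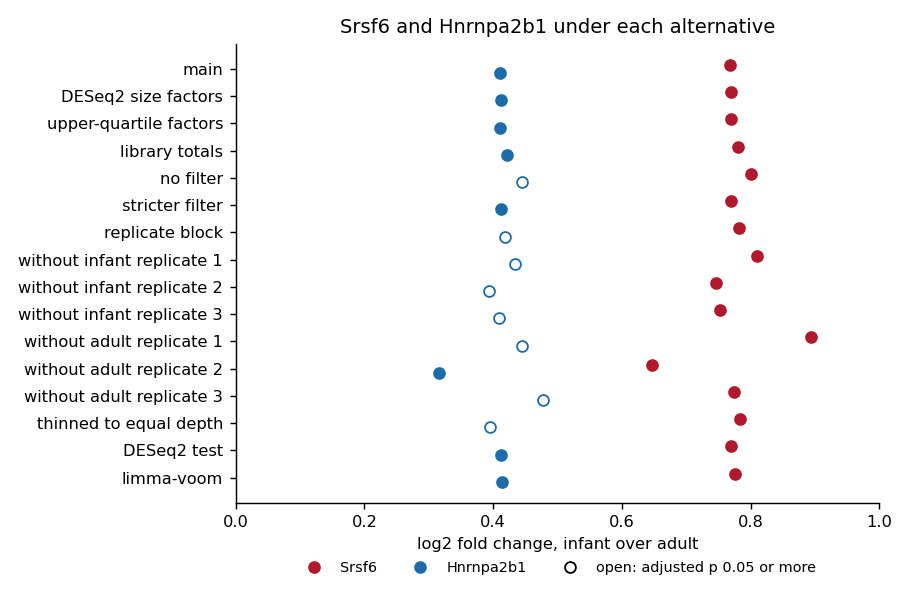
Log2 fold change, infant over adult, of Srsf6 (red) and Hnrnpa2b1 (blue) in the analysis as reported and under 15 other settings, open where the adjusted p was 0.05 or more. Srsf6 stays filled throughout, between 0.65 and 0.89, and Hnrnpa2b1 is open under 8 settings.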

How the data were processed

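RNA of 1000 cells per library, sorted in 2 rounds, was copied from an oligo(dT) primer, amplified, fragmented with Nextera XT and read in pairs of 25 bases, per the labels' protocols; the kit does not mark strand and uses no molecular identifiers. Per the submitters' processing notes, the authors aligned reads with STAR 2.5.4 to mm10 and used featureCounts. The values deposited by the authors are raw, whole-number counts, 1 row per gene symbol. Not given in the sources used here are the annotation release, the strand setting and the handling of multimapping reads. Short reads can be split between close copies: 28 of the 67 tested members share at least 10% of their 25-base stretches with other genes. Counts of these are uncertain, with the highest shares in Snrpf (92.8%), Hnrnpf (67.3%), Sf3b4 (53.9%) and U2af1l4 (52.5%). Also among them are Srsf4 (41.4%), Snrpa (33.4%), U2af1 (27.9%), U2af2 (24.4%), Hnrnph2 (24.3%), Prpf31 (17.5%) and Srsf5 (16.7%). So are Snrpg (15.7%), Snrpe (15.5%) and Sf3a3 (12.0%).

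Genes were tested with edgeR 4.0.16 (quasi-likelihood test, filterByExpr with a minimum count of 10 and total of 15, TMM factors, Benjamini-Hochberg adjustment over all 11681 genes at 0.05), without covariates. Fold changes set infant over adult, and the SE is the absolute log2 value divided by √F. GENCODE (same build), in which all 72 members matched, gave exon lengths, overlaps and positions. Floors cover counting error only. The numbers of mice do not pair the groups. Alternatives included DESeq2 1.42.0, limma 3.58.1 (voom), other scalings and filters, thinning to 3421253 counts, and leaving out each mouse. The procedure was tested on simulated counts, where it called 70.1% of 97 genes changed 2-fold and 91.6% of 95 changed 4-fold, with 8 false calls. Each simulated gene took its replicate variance from the overall trend with level, and no library was made to stand apart. Recovery in these data may therefore be lower. Changes under 2-fold were not simulated.

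The members and the lists were chosen with earlier results of these data known. Genes were named if they passed the test, were among the 3 most abundant per kb or the 2 of smallest p in their family, or were the genes past the test or the gene of smallest p in their list; others are named as chosen after their values were seen. Results for some marker genes are not reported here.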

Additional observations from a re-analysis of the deposited data

How the results depend on the processing

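Fold changes of single genes turned direction in 19 cases across 15 other settings, lost a call in 24 and gained one in 9. The members called higher numbered 2 in the analysis as reported and 1 (Srsf6) without a filter, with a replicate block and after thinning to equal depth, but 3 with upper-quartile factors, library totals, the stricter filter, the DESeq2 test and limma-voom (with Hnrnpk), and 1 to 2 with a mouse left out; those called lower numbered 0, but 1 by the DESeq2 test and 0 to 1 with a mouse left out (Hnrnph3). Calls over all genes numbered 425, 326 with the replicate block, 406 after thinning and 139 to 488 with a mouse left out. They numbered 550 of 39470 genes without a filter and 622 by the DESeq2 test. The other settings gave 426 by limma-voom, 428 with DESeq2 size factors, 445 with library totals, 459 with upper-quartile factors and 482 with the stricter filter. Same-numbered mice did not deviate together (correlations −0.047, −0.011 and −0.092, with 0 libraries closest to their own number), so the block pairs samples by number only. The median log2 fold change of the members was 0.058 without a filter, where that of all genes was −0.84, and 0.0035 to 0.054 with a mouse left out. Family medians, all near 0, turned sign with a mouse left out for Srsf (0.044; −0.035 without infant mouse 3), Snrp (0.032; as low as −0.050), U2af (0.039; −0.019 without infant mouse 3) and Prpf (−0.051; 0.016 without adult mouse 1).

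Fold changes near 0 changed sign. Sf3a3 was at 0.00077 with DESeq2 size factors, 0.0041 with library totals, 0.037 without a filter, 0.0018 with the replicate block, 0.00072 by DESeq2, 0.0018 by limma-voom, and −0.054 to 0.078 with a mouse left out. With a mouse left out, Prpf38b ran from −0.043 to 0.17, Prpf6 from −0.044 to 0.13, Sf3b1 from −0.0011 to 0.11, Snrpe from −0.25 to 0.17, Srsf5 from −0.030 to 0.10, U2af1 from −0.15 to 0.036 and U2af2 from −0.032 to 0.14. Totals of 3421253 to 4887371 counts per library limit fold changes of lowly expressed members such as Srsf12 and Hnrnpll.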
